A study of Mus musculus with 6 samples.

Results

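Transcripts of 9 genes of the insulin-like growth factor (IGF) system were followed in mouse epididymal fat: the ligand gene Igf1, the receptor genes Igf1r and Igf2r, and the genes of 6 IGF binding proteins, Igfbp2, Igfbp3, Igfbp4, Igfbp5, Igfbp6 and Igfbp7. They were taken by symbol, as every probe set that the platform annotation gives to a single one of these genes, which gave 26 of the 45101 probe sets on the array. A further probe set, which the annotation shares between Igf2r and another gene, was left out. The fat pads came from 3 male mice that carry the ldi allele of Pparg on 1 chromosome (Pparg ldi/+) and from 3 wild-type males of matched litters. All animals were 10 weeks old and of C57BL6;129Sv stock, and received no treatment that the labels name. The product of Pparg, PPAR gamma, is the nuclear receptor on which fat cell formation depends, and the labels call the mutant mice lipodystrophic. RNA of each mouse was hybridised to its own Affymetrix MOE430v2.0 array, so the 3 values of a genotype are 3 animals, and that number limits the precision. The deposited intensities had medians of 59.2 to 69.4 on the 6 arrays. The RNA is that of the whole pad, with every cell type in it.

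IGF1 is a secreted growth factor that acts through the IGF1 receptor, a tyrosine kinase close to the insulin receptor, and it promotes growth and differentiation of adipocyte precursors. Growth hormone raises Igf1 transcription in the liver and in adipose tissue. The binding proteins hold IGFs outside the cell, restrain or deliver them to receptors, and are released from them by proteases. The Igf2r product clears IGF2 and also sorts lysosomal enzymes that carry mannose 6-phosphate.

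Transcripts of 4 binding proteins were lower in Pparg ldi/+ fat. The ligand and both receptors did not pass the test in the probe set read for each. A second Igf1 probe set, 1437401_at, was lower and passed (adjusted p = 0.0219 by limma over all probe sets). Igfbp3, Igfbp4, Igfbp5 and Igfbp6 fell by 1.98-, 1.39-, 1.31- and 1.67-fold, while Igfbp2 was 1.35-fold higher without passing and Igfbp7 did not pass (log2 0.0039). For Igfbp4 the size ran from 1.39- to 2.65-fold over its 6 probe sets. The other probe set fell by 2.25-fold for Igfbp3 and by 1.73-fold for Igfbp5. For Igfbp3, Igfbp4 and Igfbp5 the probe set read thus gave the smallest fall of its gene. All 9 genes were bright enough to be tested; 4 fell, 0 rose and 5 did not pass, and at an unadjusted p under 0.05 (limma) 4 were lower and 1, Igfbp2, was higher. Of the 11201 genes tested by limma, 16.4% fell and 16.3% rose, together 32.7%. The median log2 difference of the 9 was -0.18, against -0.0043 for all genes tested. Groups did not overlap in 5 of the 9, where 47.6% of all genes tested had groups that did not overlap. Here a signal is the deposited intensity after scaling each array to a common trimmed mean, rose and fell mean an adjusted p under 0.05 (limma, Benjamini-Hochberg over all genes tested), and folds and log2 differences set Pparg ldi/+ against wild type after adding 32 to each signal, so that changes of dim genes come out too small. Each gene was read from its brightest probe set. For a single gene, an exact two-sided permutation test of 3 against 3 arrays cannot go below p = 0.1, so calls rest on the model over all genes.

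**Figure D1:**
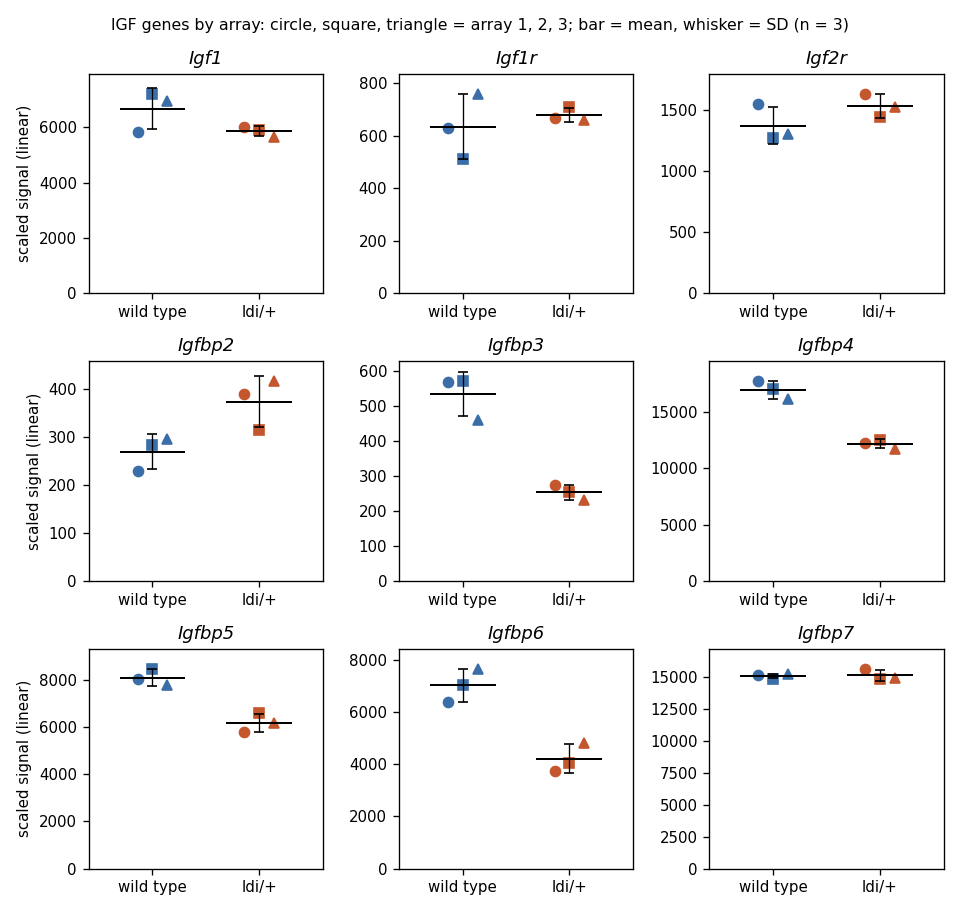
Scaled signal (linear axis from 0) of the probe set read for each of the 9 IGF genes, with 1 symbol per array, the mean as a bar and the SD as a whisker (n = 3 mice per genotype). For Igfbp3, Igfbp4, Igfbp5 and Igfbp6 every Pparg ldi/+ array lies below every wild-type array, and for Igf1, Igf1r, Igf2r and Igfbp7 the groups overlap.

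In samples of a whole tissue, fewer cells of a type and less RNA per cell cannot be told apart. Several lists of cell type markers moved with the genotype. Their counts stand beside 32.7% of all genes tested, of which 16.4% fell and 16.3% rose. The share called ran from 42.9% of tested smooth muscle and pericyte markers to 100% of tested macrophage markers. Of 11 adipocyte markers tested 8 fell, among them Adipoq, and their summed signal was 134136 to 145961 in Pparg ldi/+ against 208218 to 234964 in wild type. The 2 brightest, Fabp4 and Lpl, had log2 differences of -0.15 and -0.17 that did not pass (adjusted p = 0.0761 and 0.0601). As the mean of its probe sets Fabp4 was at -0.86 and passed (adjusted p = 6.2e-05), and it also passed with array weights (-0.17). Lpl passed under 4 alternatives, at -0.17 to -0.21. Of 12 endothelial markers 9 fell, Esam by 1.12 and Cldn5 by 1.41 on the log2 scale, with sums of 11876 to 13764 against 23605 to 25630. Of 9 mesothelial markers 6 fell, Upk3b by 0.89 and Gpm6a by 0.83, with sums of 7385 to 8159 against 12166 to 15378. All 14 macrophage markers rose, Csf1r by 0.76 and Lyz2 by 0.37, with sums of 117061 to 119759 against 43332 to 56713. Of 11 stromal progenitor and fibroblast markers 4 rose and 2 fell, with Col3a1 at 0.045 and Dcn at -0.12, which did not pass, and sums of 69501 to 74638 against 64962 to 67617. Of 7 smooth muscle and pericyte markers 2 rose and 1 fell, with Rgs5 at -0.84, Acta2 at 0.18 without passing (0.31 as the mean of its probe sets and 0.19 after quantile scaling, which passed), and sums of 22932 to 24755 against 23990 to 25350. Adipoq, which marks the labelled tissue, had a mean signal of 26686 in wild type and of 12009.9 in Pparg ldi/+. Markers of epididymal epithelium summed to 18797 and 26191 in Pparg ldi/+ arrays 1 and 2 and to 566 in array 3, against 423 to 1010 in wild type, and 4 of the 6 tested rose. Lcn8 and Rnase10 had the highest mean log2 values of them over the 6 arrays, and Rnase10 rose by 2.86 (adjusted p = 0.0461) while Lcn8 at 3.42 did not pass (adjusted p = 0.0535). Neither call was stable. Rnase10 did not pass when any array except Pparg ldi/+ array 3 was left out (2.08 to 2.95), with no filter on dim genes, no intensity trend, array weights or the mean of probe sets, or at a threshold of 0.01. Lcn8 passed without Pparg ldi/+ array 3 (5.13, adjusted p = 1.2e-06), unscaled (3.25) and with the replicate number as a block (adjusted p = 0.0474). With Pparg ldi/+ arrays 1 and 2 left out, 6 adipocyte, 9 endothelial and 2 mesothelial markers fell and 12 macrophage markers rose, and Rnase10 was at 0.15. Lyz2 (0.36), Upk3b (-0.73) and Gpm6a (-0.70) did not pass there. No marker was at 0 on all arrays of a genotype. The part of these shifts in the IGF gene differences was not tested. For the 9 genes and list genes named by rule, calls were also computed without Pparg ldi/+ arrays 1 and 2 ("array 3 alone"). There the lone array is assumed to vary like the wild-type arrays, and 6.54% of 11161 genes rose and 7.94% fell. No such value is given for single probe sets, nor singly for other genes such as Tns1, Irs1 and Insr.

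**Figure D2:**
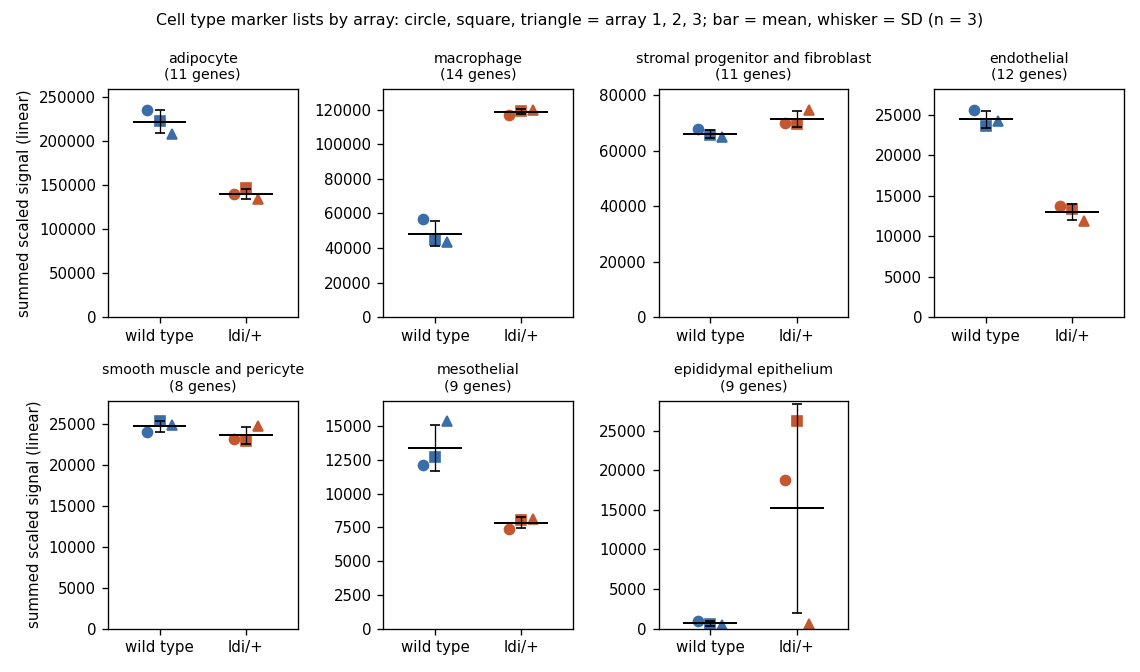
Summed scaled signal (linear axis from 0) of each cell type marker list on each of the 6 arrays, with the mean as a bar and the SD as a whisker (n = 3). Adipocyte, endothelial and mesothelial sums lie lower in every Pparg ldi/+ array, macrophage sums lie higher, and epididymal sums are high in 2 of the 3 Pparg ldi/+ arrays.

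Igfbp4 encodes a binding protein that restrains IGF action and is cut by the protease PAPP-A. Its signal was 17705, 17054 and 16098 in wild-type arrays 1, 2 and 3, and 12221, 12519 and 11725 in Pparg ldi/+ arrays 1, 2 and 3. The groups did not overlap, and the spread within each was small beside the gap between them. That is -0.48 on the log2 scale (95% interval -0.62 to -0.33, SE 0.064; adjusted p = 0.000637 by limma). Array 3 alone gave -0.61, which also passed. Igfbp4 has 6 probe sets, the most of any of the 9 genes, and all 6 fell. Their sizes differed. The 3 brightest, with wild-type means of 17390, 16952 and 16380, differed by -0.59, -0.48 and -0.57. The 3 dimmer ones, with wild-type means of 11802, 9170 and 4412, differed by -1.03, -1.01 and -1.40. The dimmest, 1421991_a_at, went from 4412 ± 232 (SD, n = 3) to 1647 ± 111 (SD, n = 3), a 2.65-fold fall, and its confidence interval of -1.60 to -1.21 did not reach that of the probe set read for the gene. The mean of all 6 probe sets gave -0.85, which is 1.77 times the value of the brightest. So the direction was shared by every probe set of Igfbp4, and the size was not. Not all 6 are of the same type. One, at -0.59, carries the suffix s_at, of sets that can match more than 1 transcript. Those at -0.57 and -1.03 are x_at sets, a type left out here when a gene is read. The a_at sets were at -0.48, -1.01 and -1.40. The exons that each probe set reads were not compared here.

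Igfbp3 encodes the main IGF carrier of blood, which binds IGFs together with the acid-labile subunit. Wild-type arrays 1, 2 and 3 read 569.6, 570.5 and 460.3, and Pparg ldi/+ arrays read 273, 254 and 230.4. Every Pparg ldi/+ array thus lay well under every wild-type array. Igfbp3 fell by 0.99 on the log2 scale (95% interval -1.30 to -0.67, SE 0.14; adjusted p = 0.000787 by limma), the largest fall of the 9 genes as read from their brightest probe sets. That probe set carries the suffix s_at, which Affymetrix gives to sets that can match more than 1 transcript. So do some others read here, among them those of Igfbp5, Ghr and Akt2. The other Igfbp3 probe set, 1423062_at, read 473, 624.6 and 368 in wild type and 229, 195 and 164 in Pparg ldi/+. It fell by 1.17 on the log2 scale (limma adjusted p = 0.00224 over all probe sets). With array 3 alone, Igfbp3 was at -1.10 and passed.

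Igfbp6 encodes a binding protein that prefers IGF2. Its single probe set gave 6384, 7031 and 7659 in wild-type arrays 1, 2 and 3, and 3745, 4048 and 4825 in the Pparg ldi/+ arrays. The groups were apart, and the SD was 9.08% of the mean in wild type and 13.2% in Pparg ldi/+. In log2 terms Igfbp6 fell by 0.74 (95% interval -0.99 to -0.49, SE 0.11; adjusted p = 0.00103 by limma). Array 3 was the highest of the Pparg ldi/+ arrays, and alone it gave -0.53, which passed (adjusted p = 0.0453).

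Igfbp5 encodes a binding protein that also binds extracellular matrix. It read 8016, 8463 and 7758 in wild type and 5776, 6570 and 6153 in Pparg ldi/+, with no overlap. On the log2 scale it fell by 0.39 (95% interval -0.56 to -0.22, SE 0.073; adjusted p = 0.00383 by limma). With array 3 alone it was also -0.39 but did not pass (adjusted p = 0.0778). As for Igfbp4, the dimmer probe set showed the larger difference: 1422313_a_at went from 2764, 2636 and 2075 in wild type to 1231, 1395 and 1660 in Pparg ldi/+. That is a 1.73-fold fall (log2 -0.79, adjusted p = 0.00279 over all probe sets), and the mean of the 2 gave -0.59, 1.51 times the value of the brighter.

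Igfbp2 encodes a binding protein that leptin is known to raise in liver. Its probe set read 229, 284 and 297 in wild-type arrays 1, 2 and 3 and 391, 316 and 417 in Pparg ldi/+. Every Pparg ldi/+ array lay above every wild-type array, although the lowest of one and the highest of the other were close. The difference of 0.43 on the log2 scale (95% interval 0.067 to 0.79, SE 0.16) did not pass, with an adjusted p of 0.0698 by limma. It passed without Pparg ldi/+ array 2 (0.54, adjusted p = 0.0488) and when arrays were weighted (0.49, adjusted p = 0.0414). Array 3 alone gave 0.58 and did not pass.

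Igfbp7 encodes a vascular and matrix protein with only weak affinity for IGFs. Its bright probe set, 1423584_at, read 15152, 14837 and 15184 in wild type and 15620, 14817 and 14869 in Pparg ldi/+. These values overlapped. They differed by 0.0039 on the log2 scale (95% interval -0.13 to 0.14, SE 0.058; adjusted p = 0.967 by limma), and the sign turned under 5 of 19 alternatives, with values from -0.090 to 0.057. The other 2 probe sets were dim and pointed in opposite directions. One, 1423585_at, had means of 198 and 281 and did not pass (log2 0.46, adjusted p = 0.0517 over all probe sets), with 284, 279 and 280.0 in Pparg ldi/+ above 167, 228 and 198 in wild type. The last, 1437804_at, was too dim to be tested, with means of 128 and 63.0. So Igfbp7 gave no shared direction over its probe sets, unlike Igfbp4.

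The upstream windows of the genes that fell are shown, though whether these genes vary together was not tested. That of Igfbp7 is printed beside them, as the window of a binding protein gene whose brightest probe set did not pass. Each runs from 250 bases before to 50 after the RefSeq start of the gene in GRCm38.p6, 5′ to 3′ on the gene's strand, and all 9 genes have at least 1 such window. Capitals mark every match, on either strand, to 6 motifs: the GC box GGGCGG, the TATA box TATAAA, the STAT motif TTCNNNGAA, the C/EBP motif TTGCNNAA, the FOXO motif GTAAACA and the PPAR element of direct-repeat type AGGTCANAGGTCA.
Igfbp3 (chr11:7213874-7214173, minus strand): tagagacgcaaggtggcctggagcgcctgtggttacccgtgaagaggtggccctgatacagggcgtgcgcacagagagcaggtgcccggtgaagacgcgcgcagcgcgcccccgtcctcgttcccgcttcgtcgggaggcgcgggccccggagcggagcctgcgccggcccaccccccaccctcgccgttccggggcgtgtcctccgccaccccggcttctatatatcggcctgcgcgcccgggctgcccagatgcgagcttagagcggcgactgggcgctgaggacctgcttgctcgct
Igfbp4 (chr11:99040994-99041293, plus strand): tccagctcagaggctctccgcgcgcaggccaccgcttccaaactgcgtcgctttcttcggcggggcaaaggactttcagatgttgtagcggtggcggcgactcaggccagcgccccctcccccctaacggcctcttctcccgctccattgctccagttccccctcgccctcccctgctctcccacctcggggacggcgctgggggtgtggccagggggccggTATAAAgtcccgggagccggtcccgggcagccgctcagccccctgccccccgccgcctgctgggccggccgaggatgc
Igfbp5 (chr1:72874816-72875115, minus strand): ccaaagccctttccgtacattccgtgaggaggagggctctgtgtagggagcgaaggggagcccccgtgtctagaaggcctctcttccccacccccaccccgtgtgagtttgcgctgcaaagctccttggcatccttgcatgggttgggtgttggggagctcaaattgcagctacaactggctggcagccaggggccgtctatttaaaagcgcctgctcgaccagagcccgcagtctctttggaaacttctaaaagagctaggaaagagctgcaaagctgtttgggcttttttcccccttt
Igfbp6 (chr15:102143936-102144235, plus strand): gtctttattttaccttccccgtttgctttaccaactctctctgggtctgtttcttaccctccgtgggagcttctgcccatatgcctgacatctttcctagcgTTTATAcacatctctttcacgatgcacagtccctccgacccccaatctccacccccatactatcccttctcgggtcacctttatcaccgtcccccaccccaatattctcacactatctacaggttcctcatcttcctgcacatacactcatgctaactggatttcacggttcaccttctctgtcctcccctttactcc
Igfbp7 (chr5:77407996-77408295, minus strand): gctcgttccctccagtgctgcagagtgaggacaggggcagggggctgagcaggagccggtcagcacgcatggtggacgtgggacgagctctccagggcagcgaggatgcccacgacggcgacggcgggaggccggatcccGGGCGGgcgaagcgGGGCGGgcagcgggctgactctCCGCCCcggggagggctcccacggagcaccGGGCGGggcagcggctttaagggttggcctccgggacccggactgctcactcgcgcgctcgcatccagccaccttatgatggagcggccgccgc

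None of the 4 windows of the genes that fell held a GC box (0 of 4), where 35.7% of 32851 windows of the same length do. Igfbp7 held 4, Igf1r 2, Igf2r 3, and the first of the 2 Igfbp2 windows 3, while the second Igfbp2 window and that of Igf1 held 0. The letters TATAAA were found in Igfbp4 and, on the reverse strand, in Igfbp6, against 13.6% of all windows. Where in the window a match lay was not considered, and near variants of TATAAA were not counted. The STAT, C/EBP and FOXO motifs, at 8.3%, 10.8% and 3.65% of all windows, were in none of the 10 windows of the 9 genes (0 of 10), nor was the PPAR element, which only 0.0396% of all windows hold in this exact form. The 4 windows did not share a base composition, since G and C made up 71.7% of Igfbp3 and 71.3% of Igfbp4 but 56.3% of Igfbp5 and 49.7% of Igfbp6, around a median of 52.7%. A match is a run of letters and not a measured site, and a window without one says only that these letters are absent from it.

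In the RefSeq order of protein-coding genes, Igfbp2 and Igfbp5 are direct neighbours, as are Igfbp3 and Igfbp1. Igfbp2 was higher without passing and Igfbp5 fell, so these neighbours pointed in opposite directions, and Igfbp1 was too dim to be tested, with wild-type signals of 84.0 ± 48.2 and Pparg ldi/+ signals of 63.5 ± 13.8 (SD, n = 3). Each of Igfbp2 to Igfbp6 also has a tensin gene, which encodes an adhesion protein, within 5 protein-coding genes, and Igfbp7 has none (0 within 5). The tensins were looked up after the binding proteins had been read. Tns1, near Igfbp2 and Igfbp5, fell by 0.87 (adjusted p = 6.7e-05), and Tns2, near Igfbp6, fell by 0.98 (adjusted p = 0.00308). Tns3, near Igfbp3, rose by 0.45 (adjusted p = 0.0243) where Igfbp3 fell, and Tns4, near Igfbp4, was too dim to be tested.

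The ligand gene Igf1 was lower in the means of all its probe sets and passed the test in 1 of 4. The brightest, 1434413_at, read 5838, 7216 and 6952 in wild-type arrays 1, 2 and 3 and 6026, 5905 and 5648 in Pparg ldi/+. Wild-type array 1 lay among the Pparg ldi/+ values, so the groups overlapped. Their means differed by -0.18 on the log2 scale (95% interval -0.38 to 0.023, SE 0.089; adjusted p = 0.160 by limma), and without wild-type array 1 it was -0.27 and passed (adjusted p = 0.0274). Array 3 alone gave -0.23, which did not pass. The second, 1437401_at, read 4567, 5628 and 5640.1 in wild type and 4233, 4114 and 4021 in Pparg ldi/+, which did not overlap. It fell by 0.35 (adjusted p = 0.0219 over all probe sets). The remaining 2 differed by -0.22 and -0.28 and did not pass (adjusted p = 0.0799 and 0.0798), also with groups that did not overlap. The mean of all 4 gave -0.26 with an adjusted p of 0.0501. All of these differences are below 1.3-fold in size.

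The IGF1 receptor gene Igf1r did not pass in any of its 3 tested probe sets. The one read for the gene gave 631, 513 and 760.3 in wild type and 666, 709 and 659 in Pparg ldi/+. Its wild-type values spanned all the Pparg ldi/+ values. In log2 units the means differed by 0.11 (95% interval -0.22 to 0.43, SE 0.14; adjusted p = 0.609 by limma). The other 2 tested probe sets pointed the other way, at -0.27 and -0.14, and 2 more, at 0.35 and -0.28, were too dim to be tested. The mean of the 5 gave -0.048, and without wild-type array 2 the value was -0.031. No direction can therefore be given for Igf1r.

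Igf2r, the receptor that clears IGF2 and sorts lysosomal enzymes, read 1550.4, 1270.2 and 1304 in wild type and 1638, 1445 and 1528 in Pparg ldi/+. The groups overlapped through wild-type array 1. Means differed by 0.16 on the log2 scale (95% interval -0.071 to 0.39, SE 0.10; adjusted p = 0.264 by limma), and the second probe set was at 0.070. Neither passed.

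Over all probe sets of the 9 genes, 23 of 26 were bright enough to be tested, and 12 of these fell and 0 rose, by a fit of 22519 probe sets in which 14.5% fell and 14.5% rose, together 29.0%. At an unadjusted p under 0.05 in that limma fit, 14 were lower and 2 higher. The 12 are 6 of Igfbp4, 2 each of Igfbp3 and Igfbp5, and 1 each of Igfbp6 and Igf1, with s_at and x_at sets among them. Probe sets of 1 gene read the same transcripts in the same RNA and are not independent of each other.

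**Figure D3:**
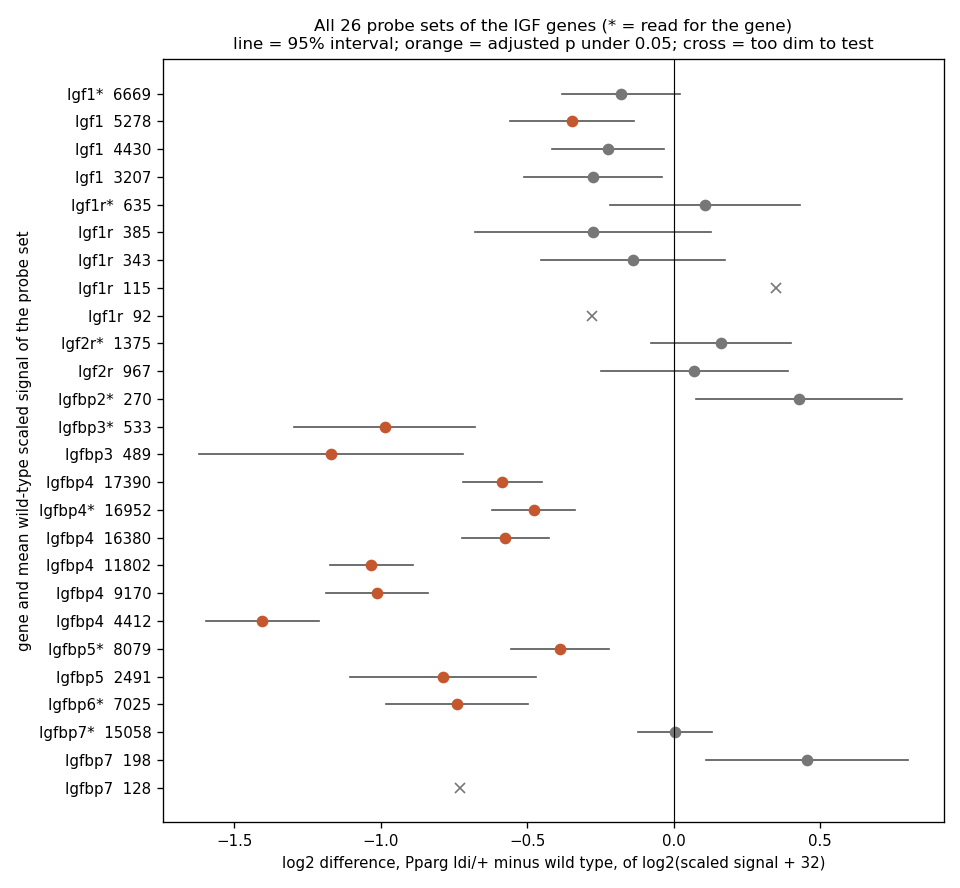
Log2 difference (Pparg ldi/+ minus wild type) of all 26 probe sets of the 9 IGF genes, labelled by gene and mean wild-type scaled signal, with 95% confidence intervals and with crosses for the 3 that were too dim to be tested. All 6 Igfbp4 probe sets lie below 0, from -0.48 to -1.40, while those of Igf1r and Igfbp7 lie on both sides.

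The other ligand and the third part of the circulating IGF complex were lower as well. Of 4 genes in this list 2 were bright enough to be tested, and both fell (100%, against 32.7% of all genes tested). Igfbp1 and Igfbpl1 were too dim. Igfals encodes the acid-labile subunit, which joins IGFs and IGFBP3 into a long-lived complex in blood and is made mainly by the liver. It read 631, 1329 and 591 in wild-type arrays 1, 2 and 3 and 94.0, 152 and 90.9 in Pparg ldi/+. The groups were far apart, with wild-type array 2 about 2.11 times the next. Igfals fell 5.82-fold (log2 -2.54, SE 0.30, limma adjusted p = 0.000352), a larger difference than that of any of the 9 genes, and array 3 alone gave -2.75. Igf2, the ligand that Igf2r clears, read 655, 645 and 755 in wild type and 406, 471 and 434 in Pparg ldi/+, again with no overlap. It fell 1.53-fold (log2 -0.61, SE 0.11, limma adjusted p = 0.00358). The mean of its probe sets was at -0.46 and did not pass (adjusted p = 0.101), nor did array 3 alone at -0.62 (adjusted p = 0.0654).

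On the growth hormone side, the receptor gene fell, and the share of genes called was near that over all genes. Of 6 genes tested 2 fell and 0 rose (33.3%, against 32.7% of all genes tested). Their median was -0.32, and -0.27 with array 3 alone. At an unadjusted p under 0.05 (limma) 0 were higher. Ghr, the growth hormone receptor, read 20240, 20342 and 20731 in wild type and 10726, 11692 and 10428 in Pparg ldi/+, a gap far wider than the spread within either group. It fell 1.87-fold (log2 -0.90, SE 0.065, limma adjusted p = 2.2e-05). Stat5a, a transcription factor that growth hormone activates, fell 1.37-fold (log2 -0.46, adjusted p = 0.0125). That call ended without Pparg ldi/+ array 1 (-0.40), with array 3 alone (-0.28) and with unscaled values (-0.39). Its relative Stat5b was at 0.11 and the kinase gene Jak2 at -0.024. Socs2 and Cish, feedback inhibitors that growth hormone induces, were at -0.18 and -0.52, neither past the threshold, and Cish spread widely in wild type (998 ± 1109, SD, n = 3).

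The proteases that release IGFs were mostly dim. Of 7 genes of IGFBP proteases and their inhibitors 4 were tested, with a median of 0.21. Of these 1 rose and 0 fell (25%, against 32.7% of all genes tested). At an unadjusted p under 0.05 (limma) 0 were lower as well. The one that rose was Adam9, a membrane metalloprotease, by 1.37-fold (log2 0.45, adjusted p = 0.0139). Pappa, which cuts IGFBP4, was too dim to be tested, with 47.7 ± 41.7 for wild type against 74.5 ± 14.3 for Pparg ldi/+ (SD, n = 3). Its inhibitors Stc1 and Stc2 were at 0.25 and -0.38 and did not pass.

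Genes of other proteins with an IGFBP domain moved both ways. Of 12 genes 9 were tested, of which 3 rose and 3 fell (66.7%, against 32.7% of all genes tested), with a median of 0.23. With array 3 alone, 2 of 8 tested rose and 1 fell. The matricellular genes Ccn1 and Ccn2 rose 1.88-fold and 2.13-fold (log2 0.91 and 1.09, adjusted p = 0.00181 and 0.0109). For Ccn1 the mean of its probe sets, at 0.53, did not pass. The serine protease genes Htra3 and Htra1 fell 2.05-fold and 1.32-fold (log2 -1.04 and -0.40, adjusted p = 4.7e-05 and 0.00199), and Htra1 did not pass with array 3 alone (-0.34).

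In the mannose 6-phosphate pathway, in which Igf2r acts, the median was 0.12. Of 7 genes tested 1 rose and 1 fell (28.6%, against 32.7% of all genes tested). Both encode adaptors that sort these receptors: Gga3 rose 1.44-fold (adjusted p = 0.00535) and Gga2 fell 1.87-fold (adjusted p = 0.000663), and Gga3 did not pass with array 3 alone (0.56). The partner receptor gene M6pr, which does not bind IGF2, was at 0.15 and did not pass. Of the IGF2 mRNA binding protein genes 1 was tested, Igf2bp3, at 0.45 without passing.

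The list of signalling below the IGF1 receptor includes Insr, the gene of the insulin receptor, which feeds in as well. Of the 20 genes tested in this list 11, with Insr, fell and 2 rose. That is 65%, against 32.7% of all genes tested, with a median of -0.36. By the smallest p the genes named were Akt2 (2.28-fold lower) and the adaptor gene Grb10 (1.90-fold lower), Grb2 (1.55-fold higher) and the substrate gene Irs2 (1.42-fold higher). Irs2 had an adjusted p of 0.0317, and its call ended when any of the 6 arrays except wild-type array 3 was left out (0.35 to 0.54), with array 3 alone (0.56), with no filter on dim genes and at a threshold of 0.01. With array 3 alone, 6 of the 20 fell and 1 rose. Irs1, which encodes a main docking protein of both receptors, and the insulin receptor gene Insr are named after their values were seen. Irs1 fell 4.01-fold (log2 -2.0, adjusted p = 7.2e-05), and Insr fell 1.40-fold (log2 -0.49, adjusted p = 0.0286), beside Igf1r at 0.11. Whether Insr and Igf1r differed was not tested.

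**Figure D4:**
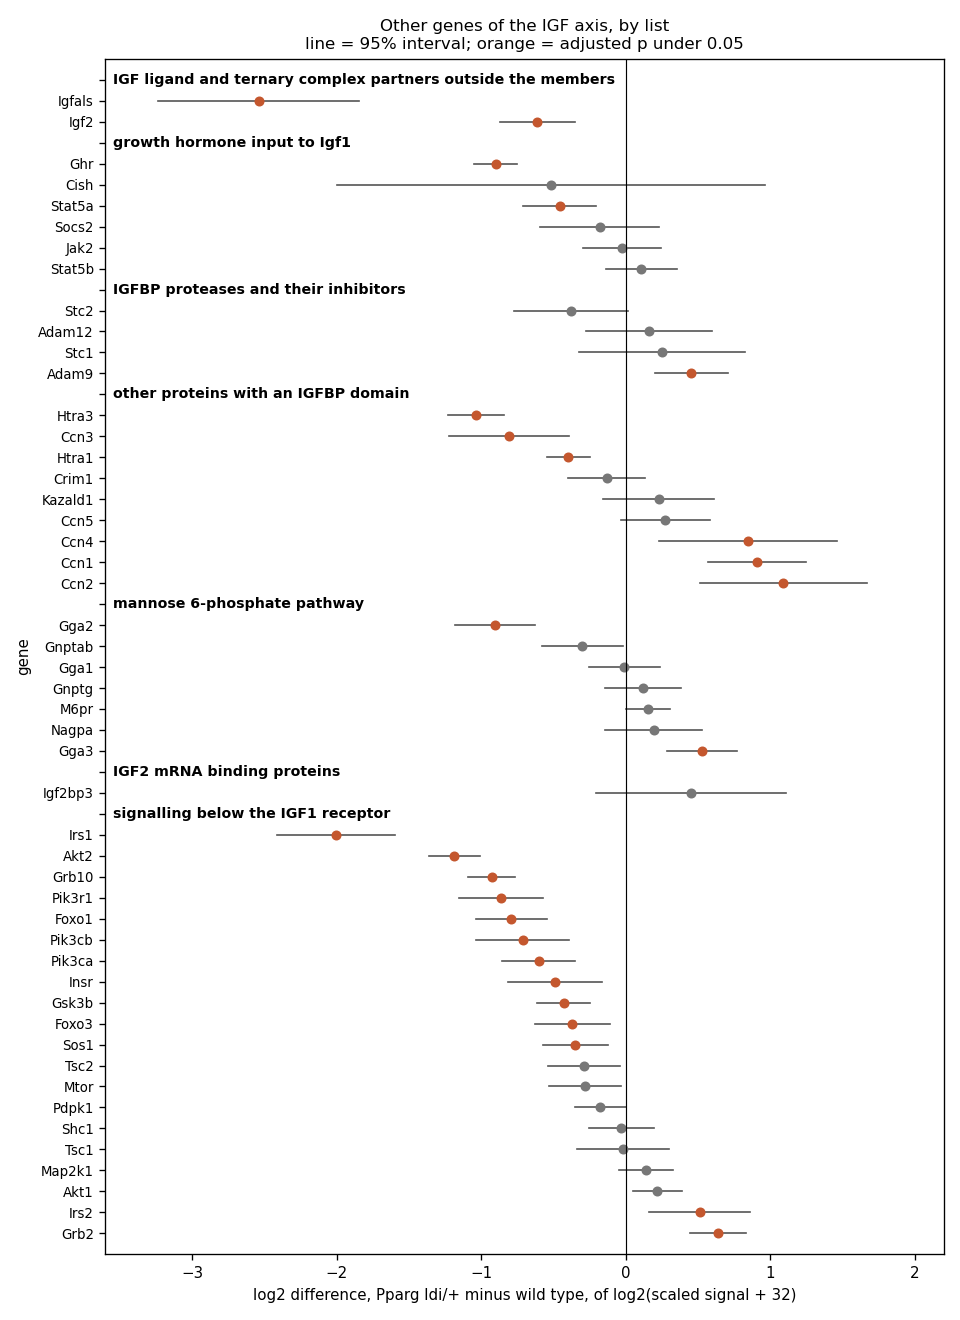
Log2 difference (Pparg ldi/+ minus wild type) with 95% confidence interval for each tested gene of 7 lists around the 9 IGF genes, in orange where the adjusted p was under 0.05. Igfals at -2.54 and Irs1 at -2.0 lie farthest from 0, and the proteins with an IGFBP domain spread to both sides.

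The genes whose pattern over the 6 arrays was most like that of a member were found among 11192 others by the root mean square difference of log2 values after subtracting each gene's mean. For Igf1 they were Rabepk, Taf1c and Cul4a, at 0.036, 0.037 and 0.040. For the genes that fell they were Anxa6 for Igfbp3 (0.049), Kdsr for Igfbp4 (0.025), Thegl for Igfbp5 (0.034) and Pcdhb17 for Igfbp6 (0.064). Pcdhb17 belongs to a family of related genes, and whether its probe set reads more than 1 of them was not checked. For the others they were Aatf for Igf1r (0.034), Ddx28 for Igf2r (0.041), Lmnb1 for Igfbp2 (0.062) and Cnot6l for Igfbp7 (0.014). These are descriptions over 6 arrays in 2 genotypes, with no test.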

How the data were processed

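The deposited values are linear intensities. Per the submitters' processing notes, MAS5 made those of 2 samples, Pparg ldi/+ arrays 1 and 2; the other 4 were assumed to be on the same scale from their like value distributions. Version and scaling target are not given here. Each array was scaled here to a mean of 500 after trimming 2% at each end, 32 was added and log2 taken. Symbols came from the platform annotation, updated through a RefSeq table of GRCm38.p6. A gene was read from its brightest probe set, leaving out x_at sets where another existed. Genes below a mean log2 value of 7.46, the median of all probe sets, were not tested. The test was limma 3.58.1 under R 4.3.3 (intensity trend, all 6 arrays, no covariates); the fit was tested on simulated data. A second fit took every probe set. Members and lists were chosen with earlier results of these data known. Named from each list were all genes past the threshold where there were 4 or fewer, otherwise the 2 with the smallest p per direction, and the 2 brightest markers. Alternatives changed the offset, scaling, filter, variance model, probe set, threshold and arrays, and used the titles' replicate number as a block.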

Additional observations from a re-analysis of the deposited data

How the results depend on the processing

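The falls of Igfbp3, Igfbp4 and Igfbp6 passed under every alternative that tested them (18, 19 and 19), with log2 ranges of -1.10 to -0.84, -0.85 to -0.42 and -0.84 to -0.53. With array 3 alone, 3 of the 9 fell, and over all genes 730 rose and 886 fell. At a threshold of 0.01 the latter were 1085 and 1153, and with every single-symbol probe set tested 2868 and 2962, with 12 probe sets of the 9 genes lower. When 1 array was left out, between 0 and 1 of the 9 genes were higher and between 4 and 5 lower, and 1 was higher with array weights. Igf1r turned to -0.048 with the mean of probe sets and ranged from -0.031 to 0.24 with 1 array left out. Igfbp7 turned to -0.072 (quantile), -0.090 (mean of probe sets) and -0.018 (array 3 alone), and ranged from -0.021 to 0.017 with 1 array left out. Fabp4 turned to 0.030 (quantile) but was at -0.86 with the mean of probe sets, and Col3a1 ranged from -0.023 to 0.10 with 1 array left out and was at 0.23 with the mean of probe sets. The causes were not tested. Unscaled values gave 1792 higher and 1331 lower. The replicate number as a block gave 1568 higher and 1598 lower, with 4 of the 9 lower. Same-numbered arrays correlated at -0.127 to -0.0857 in their deviations from the genotype mean, and differently numbered ones at 0.0358 to 0.0763. With 3 arrays per genotype these deviations are tied to each other, so they cannot show whether the numbers pair the arrays. Without detection calls, no level could be called above background.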
